A study of Homo sapiens with 12 samples.

Results

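SK-BR-3 cells exposed to diallyl trisulfide (DATS) were compared with SK-BR-3 cells given only the solvent, dimethyl sulfoxide (DMSO). SK-BR-3 is an established human breast cancer line of luminal type that carries extra copies of ERBB2, the gene of the HER2 receptor. The 3 DATS libraries came from cells treated for 16 h with 20 µM DATS, and the 3 solvent libraries from cells given 0.07% DMSO. For the DATS cells the labels give no DMSO content, so an equal amount of solvent is not stated. These libraries are 6 of the 12 RNA-seq libraries of a study that gave the same agents to MCF-10A, a breast epithelial line that does not form tumours. The labels state that each kind of sample was prepared 3 times independently. A single cell line stands for SK-BR-3, no gene was edited, and only 1 dose and 1 time were measured. Of 58735 genes in the table, 11448 had at least 1 FPKM in at least 3 of the 6 SK-BR-3 libraries and were tested. FPKM is the number of fragments of a gene, scaled to its exon length and to the size of the library.

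DATS is an oil-soluble trisulfide formed when garlic is crushed. Polysulfides of this kind react with thiols, including glutathione and cysteines of proteins. KEAP1, the protein that holds the transcription factor NRF2 in the cytoplasm, carries such reactive cysteines, and NRF2 once released drives genes of glutathione and thioredoxin metabolism, iron storage and detoxification. Heat shock factor 1 answers damaged proteins with chaperones. In a dividing cell, E2F factors drive the genes of DNA replication before S phase, and MuvB with B-MYB and FOXM1 drives the genes of mitosis later in the cycle, while the DREAM complex, which also holds MuvB, represses cell cycle genes in quiescence and G1.

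With DATS, targets of NRF2, small heat shock proteins and genes of G2 and mitosis rose in SK-BR-3, while 23 of 48 genes of DNA replication and 11 of 20 host transcripts of small nucleolar RNAs and related noncoding RNAs fell. Of 42 respiratory chain genes 15 fell, unevenly between replicates. The chemokine CCL22, the stress cytokine GDF15 and the elongation factor EEF1A2 had the largest rises among the protein-coding genes named. CRACR2B, TGFB3 and SELENBP1 had the largest falls among them, and the noncoding SNHG19 fell further. In all, 2284 genes were higher (20.0%) and 1409 were lower (12.3%), so 32.3% of the tested genes were called. The DATS and DMSO libraries did not overlap in 35.6% of tested genes (22.2% higher and 13.5% lower with DATS). A gene is called where the adjusted p of limma on log2(FPKM + 1) lay under 0.05 (Benjamini-Hochberg over the 11448 genes). The replicate number entered the fit as a block, and fold changes are on the log2(FPKM + 1) scale, which understates the change of weakly expressed genes. Most changes were small. The median log2 change was 0.38 among the higher genes and -0.42 among the lower ones, and 96 and 64 genes changed at least 2-fold on that scale. Without the block, 1508 genes were higher and 948 lower. With replicate 3 left out, 1157 were higher and 671 lower, the fewest for any replicate of SK-BR-3. The share of calls that were higher, 61.9%, depended on the scaling. It was 50.9% with libraries set to a common median and 50.8% with edgeR on reads recovered from the FPKM values.

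The SK-BR-3 libraries held 15295046 to 17619720 reads in genes with DMSO and 17950949 to 18182059 with DATS. The share of ribosomal RNA among them was 0.344 to 0.410% in the DMSO and 0.427 to 0.557% in the DATS libraries, highest in DATS replicate 2. The library size behind the FPKM values was 0.930 to 0.982 of the reads in genes with DMSO and 0.886 to 0.919 with DATS. Genes at 1 FPKM or more numbered 11317 to 11612 with DMSO and 11233 to 11307 with DATS. None of these measures overlapped between the groups, and their part in the results was not tested. The share of the mitochondrial genome was 6.39 to 6.47% with DMSO and 5.12 to 7.98% with DATS, again highest in DATS replicate 2. The median log2 change of all tested genes was 0.04, and 0.06, 0.02 and 0.05 in the 3 pairs of equal replicate number. Of 10 markers of a luminal HER2 line, 9 were well expressed, and their summed level was 4457 to 6478 FPKM with DMSO and 5416 to 6822 FPKM with DATS. CDH1, the gene of E-cadherin, stood at no more than 0.0755 FPKM in any SK-BR-3 library against a mean of 58.2 FPKM in MCF-10A with DMSO. The hormone receptors ESR1 and PGR were under 1 FPKM. In bulk RNA, fewer cells that express a gene and less RNA per cell cannot be told apart.

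**Figure D1:**
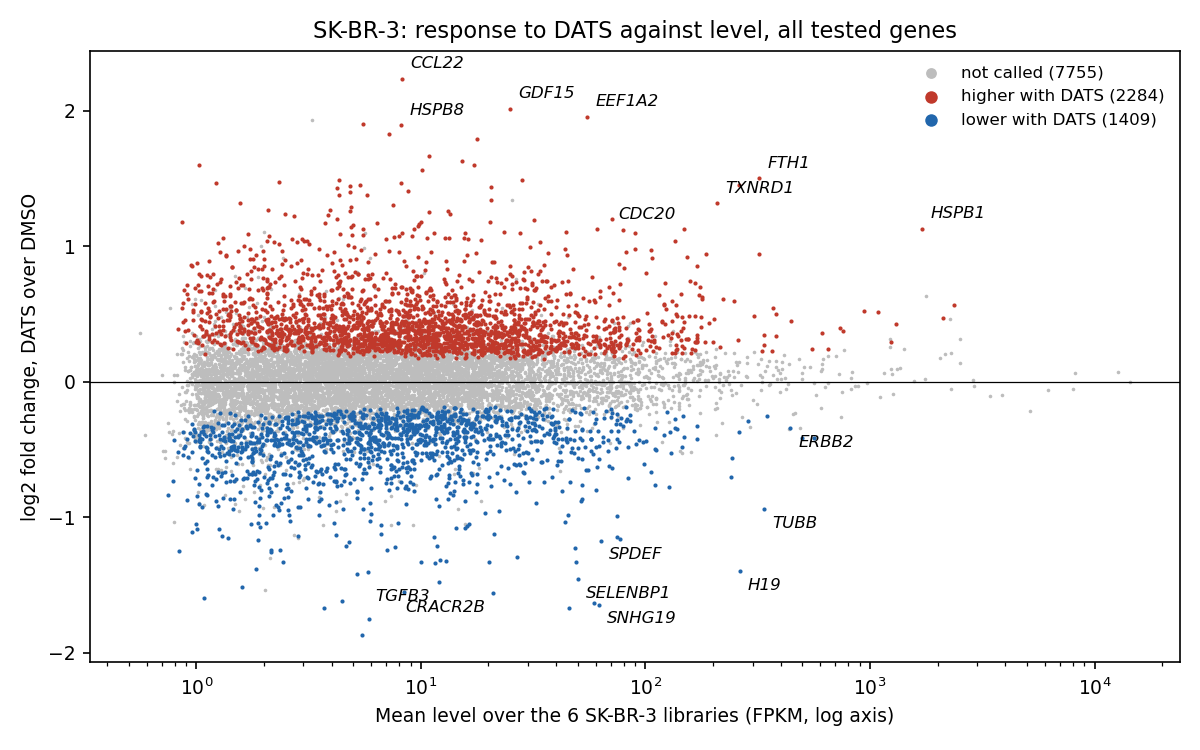
Each point is 1 of the 11448 tested genes. The x axis is its mean level over the 6 SK-BR-3 libraries in FPKM (log axis), the y axis its log2 fold change with DATS over DMSO, and colours mark the 2284 higher and 1409 lower genes. Calls spread over the whole range of levels, and the genes past 2-fold are a minority of them.

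NRF2 targets rose widely in SK-BR-3. Of 36 tested members of a list of 40, 27 were higher and 0 lower (75%, against 20.0% of all genes higher), with a median log2 change of 0.48, against 0.04 over all genes. Their summed level was 2057 to 2210 FPKM with DMSO and 3160 to 3771 FPKM with DATS. The list median was 0.61, 0.42 and 0.39 in pairs 1, 2 and 3. With replicate 1, 2 or 3 left out, 22, 24 and 23 members were higher and 0 lower. HMOX1, heme oxygenase 1 (chromosome 22, 35380361 to 35394214, GRCh38), which breaks down heme, stood at 17, 13.9 and 11.6 FPKM with DMSO and 56.4, 35.1 and 34.9 FPKM with DATS, given here and below in the order of replicates 1, 2 and 3. The lowest DATS library stood well above the highest DMSO library (log2 change 1.48 ± 0.16, adjusted p = 0.00105). After a log2 change or a difference of log2 changes, ± gives the standard error from the fit, here and below. TXNRD1 (chromosome 12, 104215779 to 104350305), the cytosolic thioredoxin reductase, stood at 142, 111 and 105 FPKM with DMSO and 328, 276 and 286 FPKM with DATS (log2 change 1.32 ± 0.07, adjusted p = 0.000116). Its groups did not overlap, and replicate 1 was the highest in each. GPX2, a glutathione peroxidase of epithelia, stood at 6.53, 3.79 and 8.15 FPKM with DMSO and 18.3, 11.8 and 16.9 FPKM with DATS (log2 change 1.25 ± 0.14, adjusted p = 0.00122), with its lowest DATS library above its highest DMSO library.

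Ferritin, which stores iron, and quinone reductase are textbook targets of NRF2. FTH1, the ferritin heavy chain, stood at 188, 159 and 153 FPKM with DMSO and 593, 415 and 422 FPKM with DATS (log2 change 1.5 ± 0.11, adjusted p = 0.000302), with reads that its processed pseudogenes could share. NQO1, a quinone reductase (chromosome 16, 69706996 to 69726951), stood at 94.2, 89 and 86.4 FPKM with DMSO and 142, 139 and 142 FPKM with DATS (log2 change 0.64 ± 0.06, adjusted p = 0.000783). The DATS libraries of NQO1 lay close together and above every DMSO library. NFE2L2, which encodes NRF2 itself, also rose, from 8.66 ± 0.333 to 14 ± 0.732 FPKM (mean ± SD, n = 3, as in all pairs of means below; log2 change 0.64 ± 0.07, adjusted p = 0.00096). The peroxiredoxin PRDX1, which reduces hydrogen peroxide, stood at 471, 553 and 486 FPKM with DMSO and 603, 609 and 574 FPKM with DATS (log2 change 0.24 ± 0.07, adjusted p = 0.0338). This call was lost in 15 of 25 alternative settings, among them no block, and with replicate 1 (adjusted p = 0.0831) or replicate 3 of SK-BR-3 (adjusted p = 0.12) left out, and with replicate 1 (adjusted p = 0.0744) or 2 (adjusted p = 0.0738) of MCF-10A left out, since both lines share 1 estimate of spread. PRDX3, its mitochondrial relative, had -0.06 ± 0.05, adjusted p = 0.468, and its libraries overlapped.

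Promoters of this list held the core of the antioxidant response element, the site NRF2 binds with small MAF proteins, in 7 of 25 members with a RefSeq promoter (28%). The letters searched were TGACNNNGC on both strands in the 250 bases before the annotated start. The same letters were in 11% of all 27305 RefSeq promoters and in 12.6% of those of tested genes. Of the 7 members with a match 5 were higher, and of the 18 without one 14 were higher, so called members were found in both. The match is shown with its flanks for TXNRD1 and GPX2, whose rises are given above, in capitals and in the direction of the gene (RefSeq, GRCh38.p14). The regions are TXNRD1 at chr12:104215660-104215708 on the + strand and GPX2 at chr14:64942839-64942887 on the - strand. No other motif searched overlapped a match, and a match is a description of the letters only.
TXNRD1: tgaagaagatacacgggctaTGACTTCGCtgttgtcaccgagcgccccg
GPX2: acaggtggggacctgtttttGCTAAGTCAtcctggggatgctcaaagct

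Other sulfur and thiol genes moved in both directions. Of 19 glutathione enzymes 6 were higher (31.6%) and 4 lower (21.1%), with a median log2 change of 0.15. With a replicate left out, 3 were higher each time and 4, 2 and 1 lower without replicates 1, 2 and 3. MGST1, a membrane-bound glutathione transferase, rose from 15.8 ± 0.642 to 27.6 ± 0.925 FPKM (log2 change 0.77 ± 0.05, adjusted p = 0.000231), with groups that did not overlap. Of 14 thioredoxins and peroxiredoxins 2 were higher and 2 lower, shares close to those of all genes. TXNDC17, a small thioredoxin-like protein, fell from 10.0 ± 2.21 to 5.94 ± 0.413 FPKM (log2 change -0.65 ± 0.11, adjusted p = 0.0054), and its exons overlap those of MED31 on the other strand. Of 8 tested genes that make or oxidise hydrogen sulfide and related thiols, 3 were lower (37.5%) and 1 was higher (12.5%), in all 3 fits with a replicate left out as well. SELENBP1, a selenium-binding protein with methanethiol oxidase activity (chromosome 1, 151364302 to 151372733), stood at 61.8, 75.4 and 82.7 FPKM with DMSO and 17.7, 32.7 and 30.0 FPKM with DATS (log2 change -1.45 ± 0.10, adjusted p = 0.000295). Each of its DATS libraries was below every DMSO library, and replicate 1 was the lowest of both groups. SUOX, sulfite oxidase, fell from 7.91 ± 1.18 to 4.8 ± 0.364 FPKM (log2 change -0.61 ± 0.08, adjusted p = 0.00194), and CTH, the cystathionine lyase that makes cysteine and hydrogen sulfide, fell from 2.15 ± 0.115 to 1.32 ± 0.168 FPKM (log2 change -0.44 ± 0.08, adjusted p = 0.00606). SQOR, the mitochondrial enzyme that oxidises sulfide, rose from 5.32 ± 1.06 to 8.47 ± 0.421 FPKM (log2 change 0.60 ± 0.12, adjusted p = 0.00937). In MCF-10A the changes of SELENBP1, SUOX and CTH were 0.06, 0.11 and 0.28, and 5 of the 8 genes differed between the lines, all lower in SK-BR-3 (4.86% of all genes differed in that direction). CTH stood at only 0.835 to 1.81 FPKM in MCF-10A.

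Among chaperones the small heat shock proteins rose most. Of 27 genes of the heat shock response 15 were higher and 0 lower (55.6% against 20.0%), with a median log2 change of 0.34. Without replicates 1, 2 and 3 the higher members numbered 16, 13 and 9, and 1 member was lower without replicate 1. HSPB1 (chromosome 7, 76302544 to 76304295), the small chaperone HSP27, was abundant, at 1032, 1133 and 1032 FPKM with DMSO and 2529.8, 2205 and 2273 FPKM with DATS (log2 change 1.13 ± 0.10, adjusted p = 0.000624). Its level was higher in each DATS library than in any DMSO library. HSPB8, a partner of BAG3 in chaperone-assisted autophagy, stood at 2.35, 3.18 and 3.15 FPKM with DMSO and 13, 13.3 and 13.9 FPKM with DATS (log2 change 1.89 ± 0.18, adjusted p = 0.000683). The 3 DATS libraries of HSPB8 were nearly equal. CRYAB, alpha-B crystallin, stood at 7, 4.02 and 2.81 FPKM with DMSO and 22, 15.7 and 9.18 FPKM with DATS (log2 change 1.56 ± 0.10, adjusted p = 0.000168), highest in replicate 1 in both groups, and BAG3 itself rose from 35.4 ± 2 to 50.5 ± 2.7 FPKM (log2 change 0.50 ± 0.06, adjusted p = 0.00151). In MCF-10A the list median was -0.04, and 11 of the 27 members responded more strongly upward in SK-BR-3 than in MCF-10A by the test of the difference (6.29% of all genes). HSPB1 is one of them, with a log2 change of 0.01 in MCF-10A (difference 1.12 ± 0.15, adjusted p = 0.00636).

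About as many proteasome genes rose as did not pass, and most genes of autophagy and lysosome rose. Of 35 proteasome genes 17 were higher and 0 lower (48.6%), with a median of 0.27 and list medians of 0.42, 0.21 and 0.14 in the 3 pairs. PSMC6, an ATPase of the regulatory particle, rose from 9.42 ± 0.147 to 13.4 ± 0.341 FPKM (log2 change 0.46 ± 0.06, adjusted p = 0.00219), and PSMD14, its deubiquitinase, rose from 13.7 ± 1.38 to 19.1 ± 1.58 FPKM (log2 change 0.45 ± 0.05, adjusted p = 0.00123). Of 38 genes of autophagy and lysosome 23 were higher (60.5%) and 1 lower, and 15, 20 and 12 were higher without replicates 1, 2 and 3. SQSTM1, the receptor p62 that carries ubiquitinated cargo and also binds KEAP1 (chromosome 5, 179806398 to 179838078), stood at 63.9, 42.1 and 41.2 FPKM with DMSO and 151, 88 and 88.2 FPKM with DATS (log2 change 1.12 ± 0.07, adjusted p = 0.00014). Replicate 1 was the highest of each group and the groups did not overlap, though 20.7% of its exon bases also lie in exons of MRNIP. GABARAPL1, a protein of the autophagosome membrane, rose from 17.6 ± 4.13 to 32.4 ± 6.63 FPKM (log2 change 0.85 ± 0.07, adjusted p = 0.000545). OPTN, optineurin, had 0.83 ± 0.08, adjusted p = 0.000624, and GPNMB, a glycoprotein of lysosomes, had 0.61 ± 0.07, adjusted p = 0.00123. Of 28 ER chaperones and genes of the unfolded protein response in the endoplasmic reticulum (ER) 11 were higher (39.3%) and 1 lower, but without replicate 3 only 4 were higher, against 9 without replicate 1 or 2. With quantile scaling 6 were higher and 2 lower, and with GC and length trends removed 5 and 3. HSPA5, the chaperone BiP, rose from 141 ± 13.5 to 215 ± 19.1 FPKM (log2 change 0.61 ± 0.07, adjusted p = 0.0012), and ERO1A, the oxidase that forms disulfides in the ER, stood at 6.76, 5.39 and 5.08 FPKM with DMSO and 15.5, 14.2 and 13 FPKM with DATS (log2 change 1.18 ± 0.06, adjusted p = 0.000116). XBP1, a transcription factor of the unfolded protein response and of luminal cells, fell from 116 ± 13.6 to 85.1 ± 7.04 FPKM (log2 change -0.44 ± 0.07, adjusted p = 0.00379).

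GDF15 was the most changed gene of the integrated stress response and of the p53 list alike. This secreted stress cytokine (chromosome 19, 18374731 to 18389176) stood at 14.3, 7.6 and 5.08 FPKM with DMSO and 68.4, 32.8 and 21.4 FPKM with DATS (log2 change 2.01 ± 0.24, adjusted p = 0.0014), lowest in replicate 3 in both groups and without overlap. With GDF15 counted, the 31 genes of the ATF4 response had 6 higher (19.4%) and 4 lower (12.9%), shares near those of all genes, and 4, 3 and 2 were higher without replicates 1, 2 and 3. SLC3A2, the heavy chain of the cystine and leucine transporters, rose from 147 ± 22.9 to 206 ± 34.4 FPKM (log2 change 0.48 ± 0.06, adjusted p = 0.00139). DDIT4, an inhibitor of mTORC1, fell from 38 ± 1.93 to 22.5 ± 4.44 FPKM (log2 change -0.74 ± 0.13, adjusted p = 0.00466), a call lost without the replicate block. DDIT3, the gene of CHOP, had 0.01 ± 0.12, adjusted p = 0.972, with overlapping libraries and reads that the overlapping gene MARS could share. Of 25 p53 targets 3 were higher (12%) and 1 was lower, and 1, 2 and 1 were higher without replicates 1, 2 and 3. CDKN1A, the kinase inhibitor p21, stood at 13.4, 15.1 and 11.8 FPKM with DMSO and 25.6, 16.4 and 13.8 FPKM with DATS (log2 change 0.40 ± 0.21, adjusted p = 0.168) and did not pass. Its DATS replicate 3 lay within the DMSO range, and without replicate 1 the log2 change was 0.16. FDXR, ferredoxin reductase, fell from 11.3 ± 2.47 to 7.12 ± 0.723 FPKM (log2 change -0.58 ± 0.09, adjusted p = 0.00302). Of 7 metallothionein and zinc genes 3 were higher (42.9%) and 0 lower, but 1, 1 and 3 were higher without replicates 1, 2 and 3. MT1G, a metal-binding metallothionein with close copies, stood at 11.3, 12 and 7.32 FPKM with DMSO and 48.4, 32.1 and 12.2 FPKM with DATS (log2 change 1.34 ± 0.21, adjusted p = 0.00338). DATS replicate 3 was only just above the DMSO libraries, and the call was lost in 4 of 25 alternative settings, all without the block.

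Most genes of G2 and mitosis rose in SK-BR-3. Of 51 tested members 37 were higher (72.5% against 20.0%) and 1 was lower, with a median log2 change of 0.47, and 0.51, 0.44 and 0.53 in pairs 1, 2 and 3. Without replicates 1, 2 and 3, 34, 33 and 31 members were higher and 4, 0 and 0 lower. With quantile scaling 36 were higher and 4 lower, and with edgeR 36 and 5. CDC20, the activator of the anaphase-promoting complex (chromosome 1, 43358955 to 43363203), stood at 84.8, 102 and 93.3 FPKM with DMSO and 199, 219 and 196 FPKM with DATS (log2 change 1.13 ± 0.11, adjusted p = 0.000751). Every DATS library was well above every DMSO library, and the spread within each group was small. AURKA, the kinase that matures centrosomes (chromosome 20, 56369389 to 56392337), stood at 77.7, 93.1 and 93.9 FPKM with DMSO and 160.1, 186 and 200.3 FPKM with DATS (log2 change 1.04 ± 0.10, adjusted p = 0.000785). CDKN3, a phosphatase of CDK1 and CDK2 that peaks in mitosis, stood at 15.5, 22.7 and 22.1 FPKM with DMSO and 32.3, 47 and 44 FPKM with DATS (log2 change 1.00 ± 0.06, adjusted p = 0.000168), and its groups did not overlap although replicate 1 was low in both. PLK1, the polo-like kinase (chromosome 16, 23677656 to 23690367), stood at 19.5, 27.1 and 28.3 FPKM with DMSO and 43.2, 51.6 and 51 FPKM with DATS (log2 change 0.95 ± 0.11, adjusted p = 0.00128), again with replicate 1 the lowest of each group. Of 15 mitotic kinesins, the motors of the spindle, 10 were higher and 0 lower (66.7%), with a median of 0.35. KIF20A, a motor of cytokinesis, rose from 21.1 ± 2.63 to 39 ± 7.26 FPKM (log2 change 0.85 ± 0.09, adjusted p = 0.000965). KIF18A, which limits the length of spindle microtubules, had 0.78 ± 0.10, adjusted p = 0.00157, and CENPE, a kinetochore motor, had 0.76 ± 0.11, adjusted p = 0.00223.

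The response of these genes differed between the 2 lines. In MCF-10A the medians of the G2/M list and of the kinesins were -0.42 and -0.43, and 35 of 51 and 13 of 15 members were lower there with 0 higher. By the test of the difference, 38 of the 51 and 13 of the 15 were higher in SK-BR-3 than in MCF-10A and 0 lower, against 6.29% of all genes in that direction. CDC20 had a log2 change of -0.66 in MCF-10A (difference 1.79 ± 0.16, adjusted p = 0.00186). For PLK1 the MCF-10A value was -0.38 (difference 1.33 ± 0.16, adjusted p = 0.00436), and for AURKA it was -0.22 (difference 1.25 ± 0.15, adjusted p = 0.00433). The lines share no library.

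**Figure D2:**
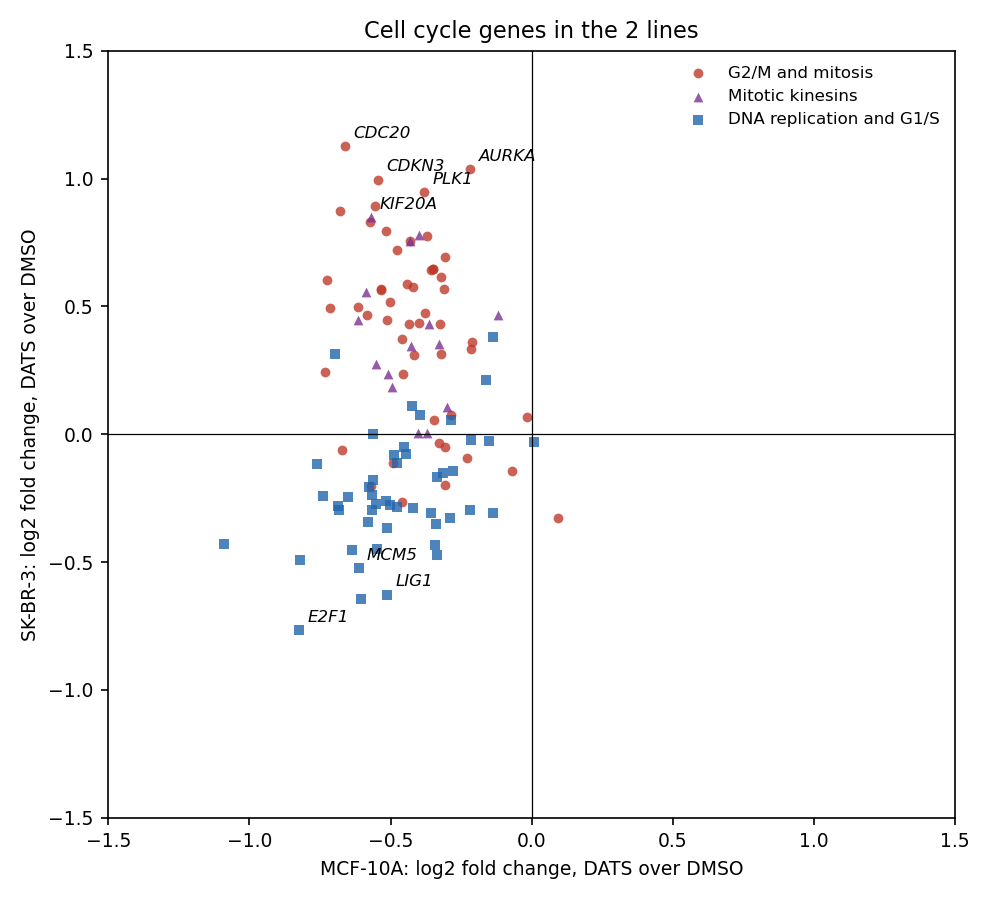
Each point is 1 tested gene of the G2/M, mitotic kinesin or DNA replication list, with its log2 fold change with DATS in MCF-10A on the x axis and in SK-BR-3 on the y axis. Most G2/M genes and kinesins lie in the upper left, above 0 in SK-BR-3 and below 0 in MCF-10A, and most replication genes lie in the lower left, below 0 in both.

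The promoters of the G2/M list often held the cell cycle homology region, the element bound by the MuvB complexes. Its letters TTTGAA, searched on both strands in the 250 bases before the start, were in 23 of 42 members with a RefSeq promoter (54.8%), in 13.6% of all promoters and in 7.83% of those of tested genes. Of the 23 members with a match 16 were higher, and of the 19 without one 14 were higher. The stretches with the matches in capitals are shown for CDC20, PLK1 and CDKN3 in the direction of the gene (RefSeq, GRCh38.p14). They are CDC20 at chr1:43358795-43358929 on the + strand, PLK1 at chr16:23678840-23678885 on the + strand and CDKN3 at chr14:54396817-54396862 on the + strand. TTCAAA is the same element read on the other strand. The last match ends 59 bases before the RefSeq start in CDC20, 23 in PLK1 and 164 in CDKN3. By the GENCODE span given above, the PLK1 stretch lies inside the gene.
CDC20: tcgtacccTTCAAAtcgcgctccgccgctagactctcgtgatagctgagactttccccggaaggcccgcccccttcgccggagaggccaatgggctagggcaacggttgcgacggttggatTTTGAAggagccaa
PLK1: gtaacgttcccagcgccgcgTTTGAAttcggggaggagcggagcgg
CDKN3: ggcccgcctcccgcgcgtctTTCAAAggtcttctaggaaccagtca

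Genes of DNA replication moved the other way. Of 48 tested members 23 were lower (47.9% against 12.3% of all genes lower) and 2 higher, with a median log2 change of -0.27 that was nearly equal in the 3 pairs (-0.23, -0.26 and -0.25). The count was lower with fewer replicates, as 17, 9 and 9 members were lower without replicates 1, 2 and 3. E2F1, a transcription factor that drives entry into S phase (chromosome 20, 33675683 to 33686404), stood at 24.1, 25.5 and 28.4 FPKM with DMSO and 13.8, 15.3 and 15.5 FPKM with DATS (log2 change -0.77 ± 0.07, adjusted p = 0.000605), with a gap between the groups wider than the range within either. GINS2, a subunit of the replicative helicase, stood at 4.08, 6.08 and 7.03 FPKM with DMSO and 2.12, 3.75 and 4.09 FPKM with DATS (log2 change -0.65 ± 0.06, adjusted p = 0.000652). Its highest DATS library was just above its lowest DMSO library, which is of replicate 1, and within each pair it was lower with DATS. LIG1, the ligase that joins Okazaki fragments, stood at 8.25, 9.68 and 10.3 FPKM with DMSO and 4.62, 5.94 and 6.77 FPKM with DATS (log2 change -0.63 ± 0.07, adjusted p = 0.00104), with no overlap. MCM5, another helicase subunit, fell from 12.5 ± 0.666 to 8.44 ± 1.16 FPKM (log2 change -0.52 ± 0.13, adjusted p = 0.0173), a call lost without replicate 1 (adjusted p = 0.07) or replicate 2 (adjusted p = 0.0946). MCF-10A had a lower median for this list, -0.49, with 41 of 48 members lower. The difference was called for 10 members, all less negative or higher in SK-BR-3, but not for E2F1 (difference 0.06 ± 0.10, adjusted p = 0.723).

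E2F sites, searched as TTTGGCGC or TTTCCCGC on both strands, were in 15 of 41 replication promoters (36.6%), in 1.96% of all promoters and in 3.44% of those of tested genes. Of the 15 members with a match 11 were lower, and of the 26 without one 10 were lower. The match is shown in capitals with its flanks for E2F1, GINS2 and LIG1 in the direction of the gene (RefSeq, GRCh38.p14), from E2F1 at chr20:33686386-33686425 on the - strand, GINS2 at chr16:85688958-85689005 on the - strand and LIG1 at chr19:48170431-48170478 on the - strand. In GINS2 the capitals are the site read on the other strand. The GINS2 and LIG1 stretches lie inside the GENCODE spans of their genes, and the E2F1 stretch overlaps its span.
E2F1: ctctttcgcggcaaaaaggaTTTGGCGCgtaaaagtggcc
GINS2: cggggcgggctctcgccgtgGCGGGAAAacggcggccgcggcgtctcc
LIG1: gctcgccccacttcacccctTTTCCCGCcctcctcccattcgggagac

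Of 30 DNA repair genes 8 were lower (26.7%) and 1 higher, and 3, 2 and 4 were lower without replicates 1, 2 and 3. FANCG, a subunit of the Fanconi core complex, fell from 9.32 ± 1.2 to 6.34 ± 0.459 FPKM (log2 change -0.49 ± 0.08, adjusted p = 0.00439). UBE2T, the ubiquitin-conjugating enzyme of the same pathway and a gene that also peaks late in the cycle, rose from 33.6 ± 2.52 to 42.1 ± 2.94 FPKM (log2 change 0.32 ± 0.06, adjusted p = 0.0093). Of 14 CDK inhibitors and D cyclins 5 were higher (35.7%) and 1 lower. Without replicates 1, 2 and 3, 4, 3 and 1 were higher and 3, 1 and 1 lower. CDKN2B, the inhibitor p15 of CDK4 and CDK6, rose from 17.2 ± 1.52 to 27.8 ± 5.61 FPKM (log2 change 0.65 ± 0.08, adjusted p = 0.00143), and CCND3, cyclin D3, fell from 16.4 ± 2.08 to 12 ± 1.7 FPKM (log2 change -0.42 ± 0.08, adjusted p = 0.00579). CCND1, cyclin D1, stood at 77.5, 61 and 58.1 FPKM with DMSO and 82.9, 74.6 and 76.3 FPKM with DATS (log2 change 0.26 ± 0.07, adjusted p = 0.0305). Its groups overlapped, and the call was lost in 17 of 25 alternative settings. Among them were no block, the SK-BR-3 libraries alone, quantile or common median scaling, edgeR (adjusted p = 0.0603), and replicate 2 (adjusted p = 0.111) or 3 (adjusted p = 0.16) of SK-BR-3 left out. Histone genes that are copied in S phase, whose copies share reads, had 2 of 12 members lower and 0 higher in SK-BR-3, and a median of 0.04 against 0.69 in MCF-10A. The SK-BR-3 median turned to -0.02 with quantile scaling or edgeR.

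The tubulins split by gene. Of 11 alpha and beta tubulins 4 were lower (36.4%) and 2 higher, and 5, 3 and 4 were lower and 2, 2 and 0 higher without replicates 1, 2 and 3. TUBB, the main beta tubulin (chromosome 6, 30720201 to 30725426), stood at 353, 478 and 504 FPKM with DMSO and 202, 227 and 263 FPKM with DATS (log2 change -0.94 ± 0.07, adjusted p = 0.000375). All DATS libraries were below all DMSO libraries, and replicate 1 was the lowest of each group. TUBA1B, an alpha tubulin, fell from 103 ± 12.7 to 63.4 ± 14.7 FPKM (log2 change -0.71 ± 0.09, adjusted p = 0.00179), and TUBB4B, another beta tubulin, fell from 296 ± 34.2 to 228 ± 18.2 FPKM (log2 change -0.37 ± 0.07, adjusted p = 0.00668), a call lost without the block. These genes have near-identical copies, so their reads may be split between them. In MCF-10A, TUBB had 0.18, and the difference was -1.12 ± 0.10, adjusted p = 0.00195. Of 26 actin and SRF targets 14 were higher and 0 lower (53.8%), with a median of 0.31. TPM1, tropomyosin 1, rose from 33.6 ± 2.13 to 57 ± 4.88 FPKM (log2 change 0.74 ± 0.08, adjusted p = 0.00107).

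ERBB2, the amplified receptor gene that marks this line (chromosome 17, 39687914 to 39730426), fell. It stood at 517, 494 and 469.7 FPKM with DMSO and 404, 377 and 389 FPKM with DATS (log2 change -0.34 ± 0.06, adjusted p = 0.00451). The change is small beside the level, yet the highest DATS library was below the lowest DMSO library. In MCF-10A the log2 change was 0.06 (difference -0.39 ± 0.08, adjusted p = 0.0227). Of 15 tested genes of the 17q12 amplicon around it 2 were lower (13.3%) and 1 higher (6.67%). PGAP3, a remodeller of GPI anchors that lies beside ERBB2, fell from 74.8 ± 3.94 to 55.1 ± 6.99 FPKM (log2 change -0.44 ± 0.08, adjusted p = 0.00539), and ORMDL3, a regulator of sphingolipid synthesis, rose from 66 ± 7.4 to 85.8 ± 2.21 FPKM (log2 change 0.38 ± 0.08, adjusted p = 0.00846). Of 25 receptors, ligands and effectors of the ERBB family 6 were higher (24%) and 3 lower (12%), shares near those of all genes.

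Luminal genes changed in both directions while most tested basal and mesenchymal genes rose. Of 23 luminal genes 5 were lower (21.7%) and 3 higher (13%), and 5, 3 and 3 were lower without replicates 1, 2 and 3. SPDEF, an ETS factor of luminal cells (chromosome 6, 34537802 to 34556333), stood at 57.8, 103 and 103 FPKM with DMSO and 24, 48 and 44.3 FPKM with DATS (log2 change -1.17 ± 0.06, adjusted p = 0.000116), with no overlap and replicate 1 lowest in each group. MUC1, an apical mucin, fell from 4.85 ± 1.39 to 2.47 ± 0.799 FPKM (log2 change -0.75 ± 0.12, adjusted p = 0.0034). EPCAM, the epithelial adhesion molecule, rose from 112 ± 17.2 to 175 ± 1.2 FPKM (log2 change 0.65 ± 0.09, adjusted p = 0.00192), and KRT7, a keratin of simple epithelia, rose from 766 ± 42.4 to 1106 ± 129.8 FPKM (log2 change 0.52 ± 0.09, adjusted p = 0.00545). Of 12 tested basal markers, of 20 listed, 7 were higher and 0 lower (58.3%). KRT17 (chromosome 17, 41619441 to 41624842), a keratin of basal and stressed epithelia, stood at 10.6, 6.4 and 7.25 FPKM with DMSO and 34.5, 23.5 and 21.5 FPKM with DATS (log2 change 1.60 ± 0.09, adjusted p = 0.000116). KRT16, another keratin of stressed epidermis, stood at 2.91, 2.12 and 2.62 FPKM with DMSO and 15.6, 11 and 8.91 FPKM with DATS (log2 change 1.82 ± 0.14, adjusted p = 0.000312), and both share reads with pseudogenes. LAMB3, a chain of a laminin that anchors basal cells, rose from 14.4 ± 4.09 to 32.7 ± 11.8 FPKM (log2 change 1.11 ± 0.12, adjusted p = 0.00104). The defining basal genes KRT14, KRT6A, TP63 and CDH3 stayed under 1 FPKM in all 6 libraries. The 8 basal markers used to check the cells summed to 16.8 to 22.6 FPKM with DMSO and 21.3 to 26.3 FPKM with DATS, mostly from EGFR.

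Of 22 tested mesenchymal and matrix genes, of 36 listed, 14 were higher (63.6%) and 4 lower (18.2%), with a median of 0.62. CD44, the hyaluronan receptor, stood at 1.34, 0.708 and 1.18 FPKM with DMSO and 4.38, 3.26 and 3.98 FPKM with DATS (log2 change 1.24 ± 0.06, adjusted p = 0.000116), with no overlap between the groups. TGFBR2, the type II receptor of TGF-beta, rose from 3.8 ± 0.873 to 7.78 ± 0.787 FPKM (log2 change 0.88 ± 0.08, adjusted p = 0.000624), and ANXA1, annexin A1, stood at 10.6, 6.25 and 4.72 FPKM with DMSO and 28.3, 21.2 and 20.8 FPKM with DATS (log2 change 1.63 ± 0.14, adjusted p = 0.00049). On the lower side, TGFB3, a TGF-beta ligand (chromosome 14, 75958099 to 75982991), stood at 12.5, 20.2 and 21.3 FPKM with DMSO and 3.3, 6.64 and 8.01 FPKM with DATS (log2 change -1.48 ± 0.08, adjusted p = 0.000123), and ID2, an inhibitor of basic helix-loop-helix factors, stood at 49.8, 96.9 and 59.6 FPKM with DMSO and 22.3, 36.1 and 26.2 FPKM with DATS (log2 change -1.23 ± 0.07, adjusted p = 0.000168). For both, every DATS library lay below every DMSO library. CDH5, the cadherin of endothelium, was expressed in this line at 15.1, 10.7 and 9.75 FPKM with DMSO and 30.0, 21.3 and 24.6 FPKM with DATS (log2 change 1.04 ± 0.08, adjusted p = 0.000375), while the endothelial markers KDR, PECAM1 and VWF stayed under 1 FPKM. ESAM, an adhesion molecule of endothelium, was also expressed, at 6.96, 7.94 and 8.58 FPKM with DMSO and 8.98, 7.78 and 8.17 FPKM with DATS (log2 change 0.08 ± 0.10, adjusted p = 0.552), and did not pass. The fibroblast markers DCN and LUM were at 0 in all 6 libraries, and the 6 fibroblast markers summed to 1.59 to 2.43 FPKM with DMSO and 1.70 to 2.25 FPKM with DATS.

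CCL22, a chemokine that attracts regulatory T cells (chromosome 16, 57358772 to 57366190), had the largest rise of the protein-coding genes named. It stood at 3, 1.77 and 1.92 FPKM with DMSO and 18.1, 12.1 and 12.5 FPKM with DATS (log2 change 2.24 ± 0.08, adjusted p = 3.34e-05). All DATS libraries lay far above all DMSO libraries, and in MCF-10A CCL22 was under 1 FPKM in all libraries, so the lines cannot be compared for it. Of the 25 tested NF-kB and inflammatory genes, of 40 listed, 7 were higher and 0 lower (28%), a share not far from the 20.0% of all genes, and 4, 6 and 4 were higher without replicates 1, 2 and 3. ICAM1, an adhesion molecule, rose from 3.05 ± 0.338 to 6.63 ± 1.48 FPKM (log2 change 0.90 ± 0.15, adjusted p = 0.00425). The list median was 0.34 against 0.79 in MCF-10A, and by the test of the difference 6 members were lower and 1 higher in SK-BR-3. Of 24 interferon and MHC class I genes 14 were higher and 0 lower (58.3%), with a median of 0.36. HLA-B, a class I antigen (chromosome 6, 31269491 to 31357188), stood at 11.3, 9.58 and 8.17 FPKM with DMSO and 25.7, 18.9 and 19.3 FPKM with DATS (log2 change 1.06 ± 0.12, adjusted p = 0.00104), and HLA-C rose from 14.7 ± 0.328 to 26.3 ± 5.96 FPKM (log2 change 0.77 ± 0.11, adjusted p = 0.00211), both with reads that the other class I genes could share. PSMB9, a subunit of the immunoproteasome, rose from 6.64 ± 1.99 to 12.1 ± 4.64 FPKM (log2 change 0.75 ± 0.11, adjusted p = 0.0028). STAT3, a transcription factor of cytokine signalling, rose from 59.4 ± 3.25 to 82.6 ± 13.9 FPKM (log2 change 0.46 ± 0.08, adjusted p = 0.0054). The 6 leukocyte markers each stayed under 1 FPKM. CSF1R, the receptor of macrophage growth factor, which breast epithelium can also express, stood at 31.4, 14.7 and 11 FPKM with DMSO and 46.3, 27.2 and 22.1 FPKM with DATS (log2 change 0.78 ± 0.10, adjusted p = 0.00195). It was higher with DATS in each pair, but its groups overlapped, as DMSO replicate 1 was above DATS replicates 2 and 3, and the call was lost without the block.

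Targets of the aryl hydrocarbon receptor, a sensor of aromatic compounds, had 7 of 9 tested members higher and 0 lower (77.8%). CYP1A1, the oxidase that this receptor induces (chromosome 15, 74719542 to 74725610), stood at 7.06, 0.995 and 7.79 FPKM with DMSO and 17.8, 9.33 and 22 FPKM with DATS (log2 change 1.66 ± 0.23, adjusted p = 0.00201). DMSO replicate 2 was far below the other 2 DMSO libraries, and all DATS libraries were above them. NEDD9, a scaffold of focal adhesions, rose from 10.7 ± 2.53 to 17.2 ± 3.08 FPKM (log2 change 0.64 ± 0.07, adjusted p = 0.00111).

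A minority of the nuclear genes of the respiratory chain fell, unevenly between replicates. Of 42 tested genes 15 were lower (35.7%) and 0 higher, with a median of -0.24, but the medians of pairs 1, 2 and 3 were -0.01, -0.28 and -0.39. Accordingly 25 were lower without replicate 1, 12 without replicate 2 and 9 without replicate 3. Under other scalings more were lower, 25 with quantile scaling, 26 with edgeR and 22 with DESeq2. COX8A, a subunit of cytochrome oxidase (chromosome 11, 63974607 to 63976543), stood at 109.7, 179 and 199.8 FPKM with DMSO and 91.2, 106 and 79 FPKM with DATS (log2 change -0.78 ± 0.17, adjusted p = 0.0117). The gap was widest in replicate 3 and narrow in replicate 1, and without replicate 3 the log2 change was -0.50. NDUFB8 and NDUFA11, both subunits of complex I, had -0.73 ± 0.14, adjusted p = 0.00771 and -0.68 ± 0.14, adjusted p = 0.00973. Exons of NDUFB8 overlap those of HIF1AN on the other strand. None of the 13 protein-coding genes of the mitochondrial genome was called, and their medians were -0.01, 0.34 and -0.34 in pairs 1, 2 and 3, with DATS replicate 2 the highest library. The part of library quality in either pattern was not tested.

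**Figure D3:**
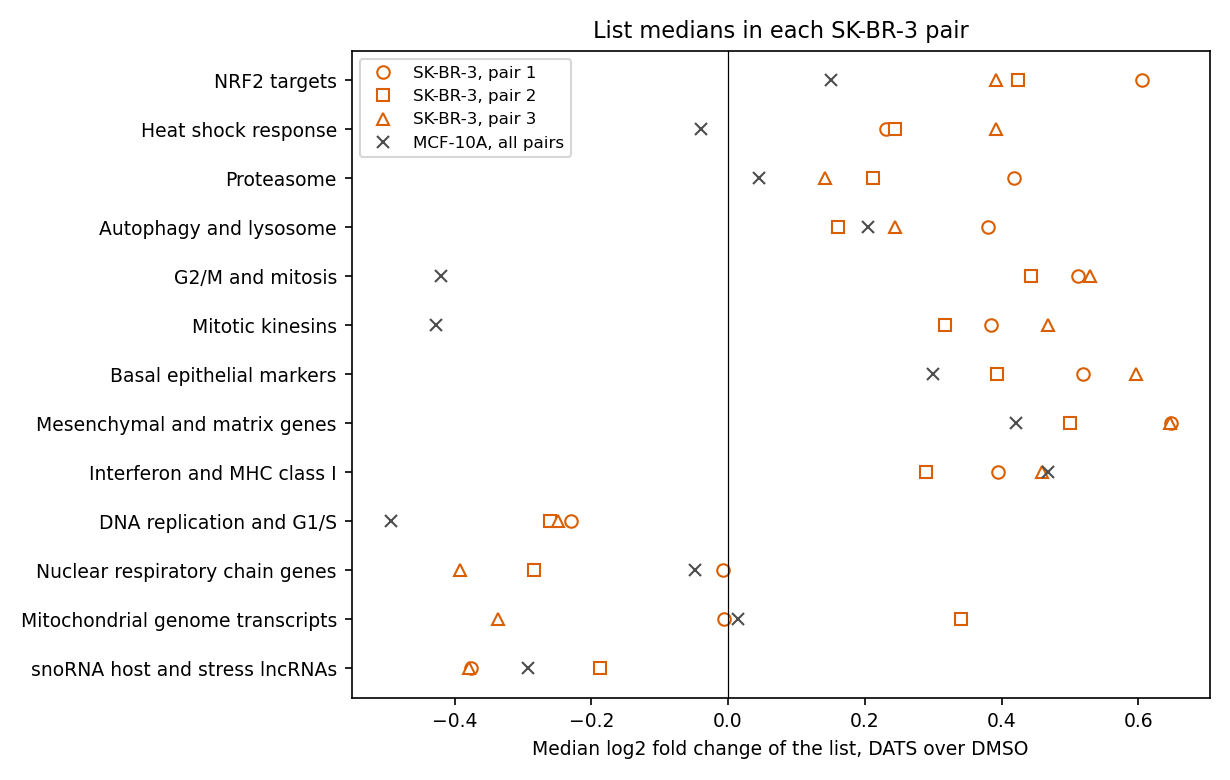
For 13 lists, the x axis gives the median log2 fold change of the members with DATS over DMSO in each SK-BR-3 pair (circle, square and triangle for replicates 1, 2 and 3) and the MCF-10A median from the fit (cross). The G2/M and replication lists hold nearly equal medians in the 3 pairs, while the respiratory chain list runs from -0.01 to -0.39 and the mitochondrial genome list from -0.34 to 0.34.

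Of 21 glycolysis genes 5 were higher (23.8%) and 2 lower (9.52%), shares near those of all genes, and 3, 2 and 2 were higher without replicates 1, 2 and 3. HK2, hexokinase 2, fell from 13.6 ± 0.939 to 9.11 ± 1.21 FPKM (log2 change -0.54 ± 0.08, adjusted p = 0.00319), and PFKL, a phosphofructokinase, fell from 37.1 ± 2.97 to 27.1 ± 1.79 FPKM (log2 change -0.44 ± 0.08, adjusted p = 0.00538). These are the 2 lower members, and the 5 higher ones are not named. LDHA, lactate dehydrogenase A, had 0.03 ± 0.07, adjusted p = 0.811. Of 25 genes of cholesterol synthesis and uptake 11 were higher (44%) and 3 lower (12%), and 8, 8 and 5 were higher without replicates 1, 2 and 3. Log2 changes in this list ran from -0.79 to 0.54, so its largest change was a fall. FDFT1, squalene synthase, rose from 21.4 ± 1.59 to 30.7 ± 0.987 FPKM (log2 change 0.50 ± 0.07, adjusted p = 0.00209).

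EEF1A2, a translation elongation factor whose normal expression is mostly in muscle and neurons (chromosome 20, 63488012 to 63499322), stood at 19.7, 21.6 and 24 FPKM with DMSO and 69.6, 91.1 and 104 FPKM with DATS (log2 change 1.95 ± 0.09, adjusted p = 0.000116). The groups were far apart and in both of them replicate 3 was the highest. In MCF-10A, where EEF1A2 stood at 0.370 to 1.20 FPKM, the log2 change was 0.56 (difference 1.39 ± 0.13, adjusted p = 0.00186). At that low level the scale understates a change, so the difference is not a measure of a weaker response there. EEF1A1, the copy used by most cells, had 0.24 ± 0.08, adjusted p = 0.0596, and reads of this pair and of EEF1A1 pseudogenes could be shared. Few genes of ribosomes were called. Of 40 cytosolic ribosomal protein genes 3 were higher (7.5%) and 0 lower, and of 35 genes of ribosome biogenesis 1 was higher (2.86%) and 2 lower (5.71%).

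Several genes with large changes stood outside these pathways. KPNA7, an importin of early embryos, stood at 1.58, 1.8 and 1.82 FPKM with DMSO and 10.1, 7.32 and 10.4 FPKM with DATS (log2 change 1.90 ± 0.13, adjusted p = 0.000257). PSG4, a pregnancy-specific glycoprotein with close copies on chromosome 19, stood at 12.5, 4.69 and 5.76 FPKM with DMSO and 39.4, 22.9 and 21.2 FPKM with DATS (log2 change 1.79 ± 0.12, adjusted p = 0.000231). In both genes the groups did not overlap. Of the genes that fell, CRACR2B, a regulator of store-operated calcium entry (chromosome 11, 826144 to 831991), stood at 18, 33.5 and 44 FPKM with DMSO and 4.95, 13.5 and 12.4 FPKM with DATS (log2 change -1.56 ± 0.11, adjusted p = 0.000302). LRRC26, a subunit that opens BK potassium channels, stood at 31.7, 37.9 and 46.2 FPKM with DMSO and 13.1, 17.1 and 15 FPKM with DATS (log2 change -1.29 ± 0.09, adjusted p = 0.000295). In neither did the groups overlap. SERHL2, a hydrolase-like gene with a close copy and an overlap with RRP7BP, had -1.32 ± 0.08, adjusted p = 0.00014. RAB26, a GTPase of secretory granules, had -1.22 ± 0.14, adjusted p = 0.00123, and SYT8, a synaptotagmin, had -1.13 ± 0.13, adjusted p = 0.0012. TRIM3, a ubiquitin ligase, had -1.08 ± 0.08, adjusted p = 0.000312, STAC2, an adaptor of calcium channels near ERBB2 on chromosome 17, had -1.05 ± 0.13, adjusted p = 0.00161, and RHPN1 had -1.05 ± 0.15, adjusted p = 0.00248. By the test of the difference, CRACR2B, LRRC26, SERHL2, RAB26, TRIM3, STAC2 and RHPN1 were lower in their response in SK-BR-3 than in MCF-10A, and SYT8 did not pass that test (-0.52 ± 0.18, adjusted p = 0.106). CRACR2B, LRRC26, SERHL2 and STAC2 were under 1 FPKM in every MCF-10A library, where a fall could hardly be seen, so their differences say little beyond the fall in SK-BR-3. RAB26 was also low in MCF-10A, at 0.706 to 2.71 FPKM.

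Among noncoding RNAs, 158 of 662 long noncoding genes were lower (23.9%) and 45 higher (6.80%), against 11.4% and 21.8% of 10107 protein-coding genes. Of 20 host genes of small nucleolar RNAs and stress-related noncoding RNAs 11 were lower and 0 higher (55%), and 7, 11 and 4 were lower without replicates 1, 2 and 3. SNHG19, a host transcript (chromosome 16, 2154797 to 2155358), stood at 66.2, 111 and 107 FPKM with DMSO and 28.7, 30.8 and 27.4 FPKM with DATS (log2 change -1.64 ± 0.15, adjusted p = 0.000627). The 3 DATS libraries were nearly equal and far below the DMSO libraries. H19, an imprinted noncoding RNA (chromosome 11, 1995176 to 2001470), stood at 187, 532 and 414 FPKM with DMSO and 63.7, 219 and 161 FPKM with DATS (log2 change -1.39 ± 0.07, adjusted p = 0.000116). DATS replicate 2 was above DMSO replicate 1, so the groups overlapped, while in each pair the DATS library was lower. SNHG15, another host transcript, fell from 22.4 ± 2.43 to 13 ± 2.12 FPKM (log2 change -0.75 ± 0.08, adjusted p = 0.00104).

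**Figure D4:**
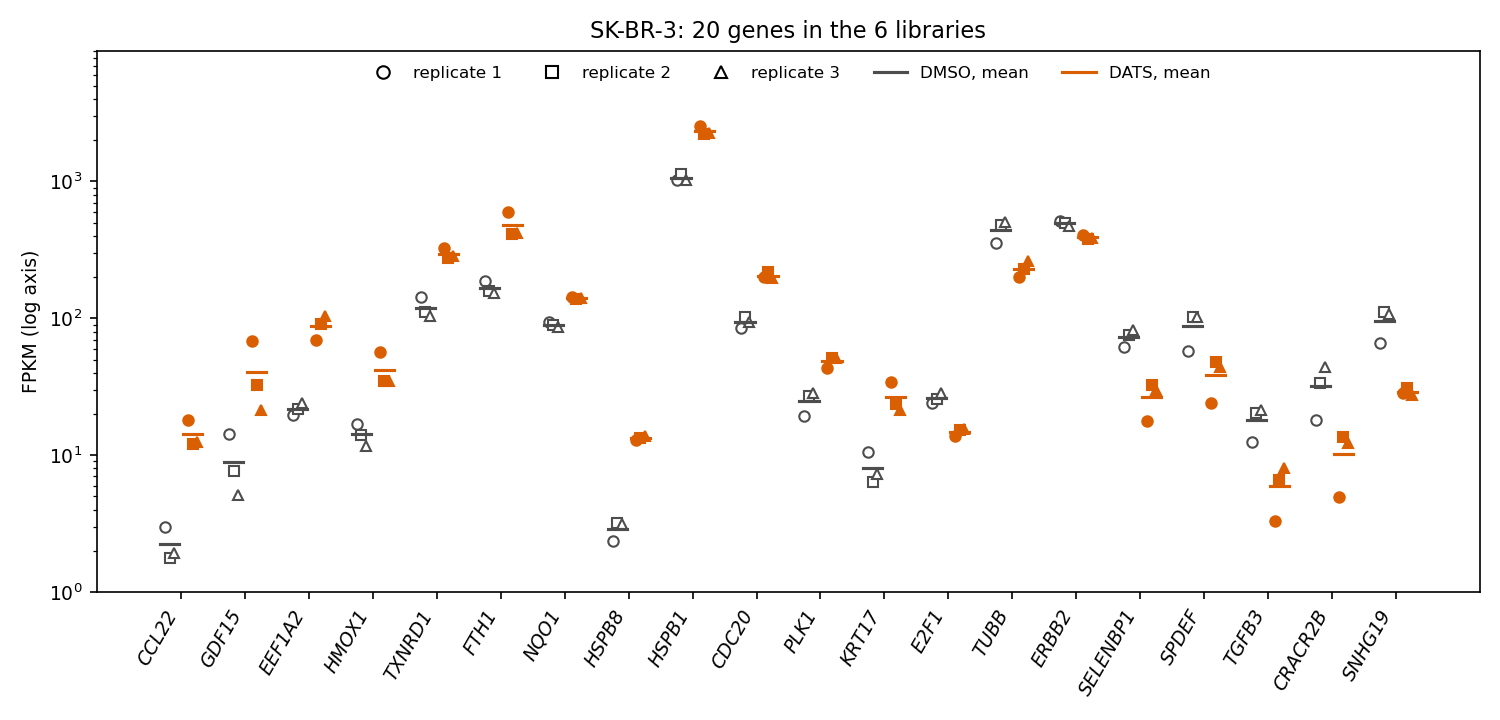
Level of 20 genes named in the text in each of the 6 SK-BR-3 libraries, in FPKM on a log axis. Symbols mark replicates 1, 2 and 3 and bars the group means, and for each gene the DATS libraries lie wholly on one side of the DMSO libraries. For many of these genes the naming rule itself required groups without overlap, which 35.6% of all tested genes had.

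The remaining genes named whatever their result were JUN and FOXQ1. JUN, an immediate early factor, stood at 74.7, 94.2 and 24.8 FPKM with DMSO and 48.4, 56.6 and 29.5 FPKM with DATS (log2 change -0.37 ± 0.19, adjusted p = 0.176), and did not pass. Its DMSO libraries spread widely and enclosed the DATS libraries, and without replicate 3 it would have passed (-0.67, adjusted p = 0.032). FOXQ1, a forkhead factor, was under 1 FPKM in every SK-BR-3 library and was not tested.

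**Figure D5:**
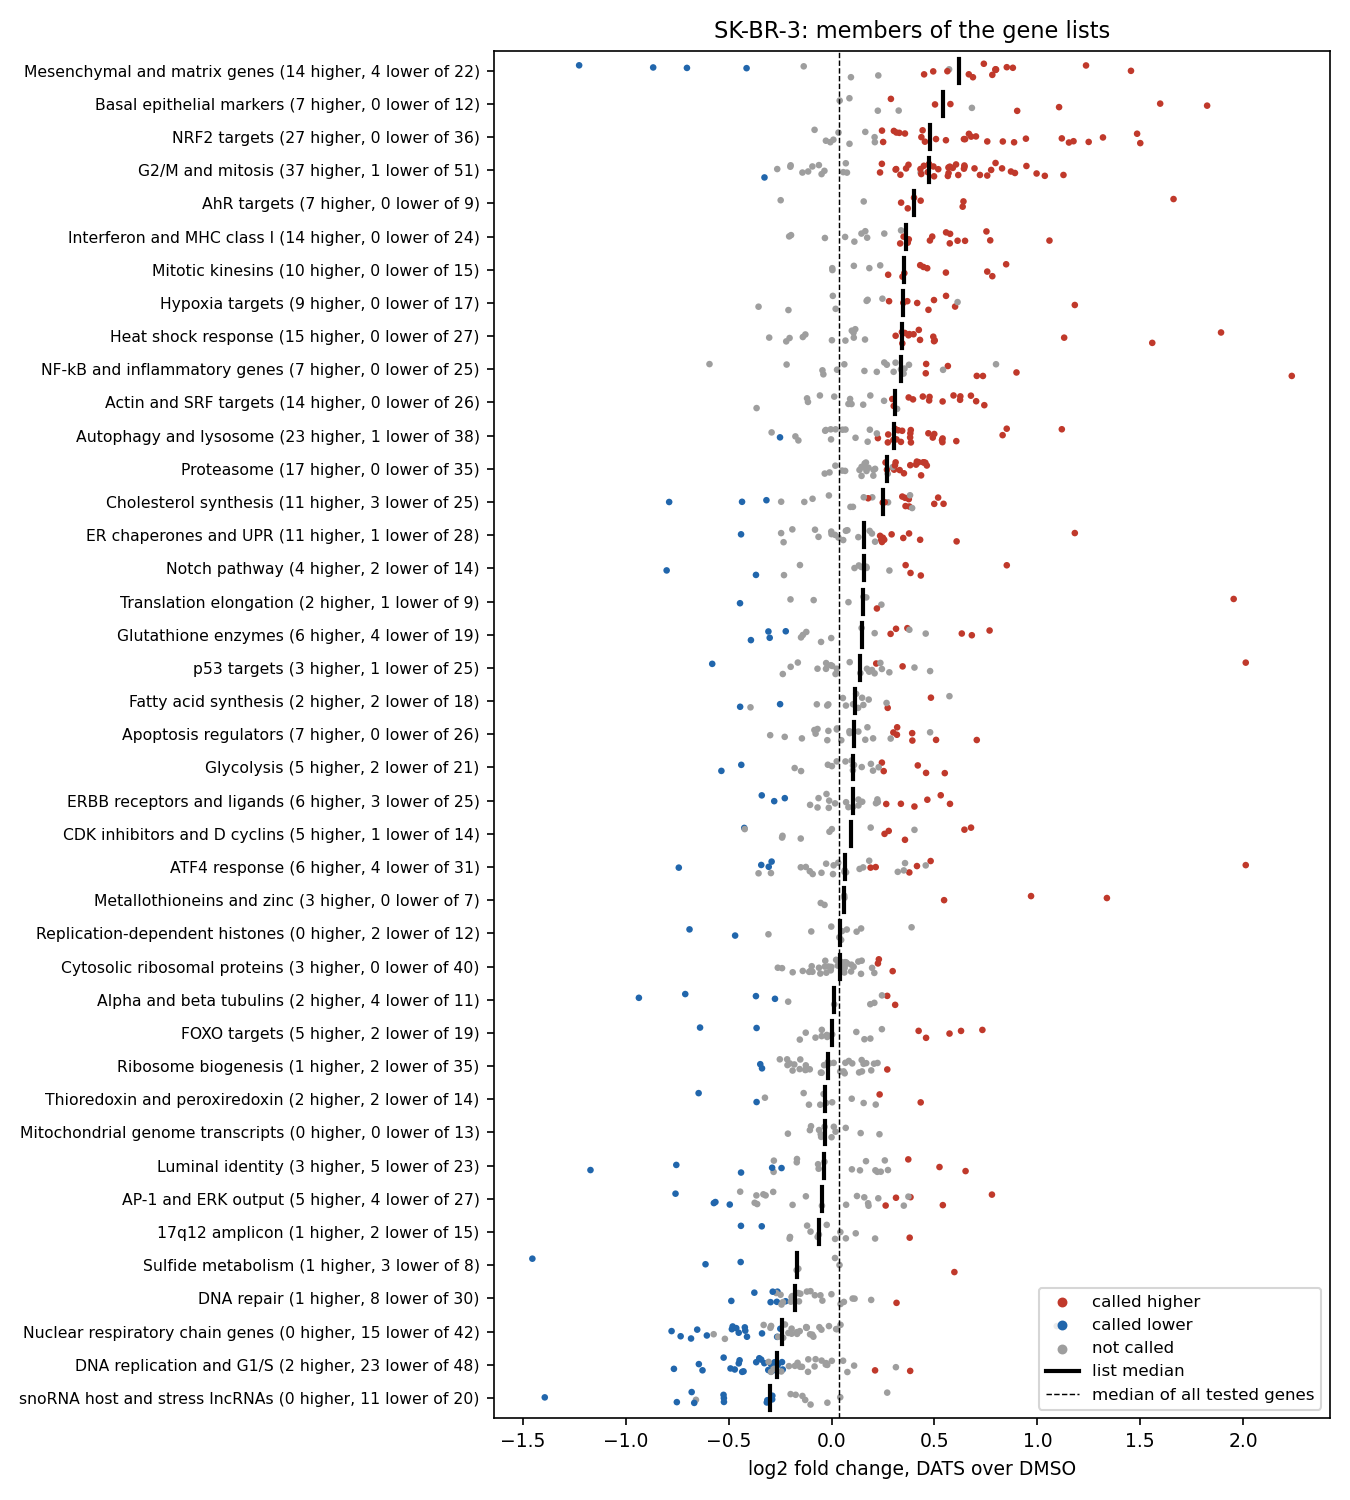
Members of the 41 lists with at least 7 tested genes. The x axis is the log2 fold change with DATS over DMSO, each point 1 gene coloured by its call, the thick bar the list median and the dashed line the median of all tested genes (0.04). The medians run from 0.62 in the mesenchymal and matrix list to -0.30 in the snoRNA host list.

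The called genes also differed in base composition and length. The median exon length was 5000.5 bases in higher genes, 3914 in lower genes and 4573.5 in all tested genes, and the median GC content was 45.6, 56.1 and 48.7%. With the trends of GC content and exon length removed, which was chosen after seeing the data, 1907 genes were higher and 1747 lower (52.2% higher). Under that setting 38 of the 51 G2/M genes were higher and 5 lower, and 25 of the 36 NRF2 targets were higher and 0 lower. Of the 48 replication genes 29 were lower and 1 higher. Of the 4065 genes in the authors' deposited table for this comparison, which lists only genes under an unadjusted p of 0.05, 1199 were higher and 920 lower at an adjusted p under 0.05 by the authors' own test. Of the genes called here, 1846 also passed in the authors' deposited table with the same sign, and 0 had an opposite sign there.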

How the data were processed

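RNA of 12 libraries was measured by RNA-seq, 3 for each of SK-BR-3 and MCF-10A with DMSO or DATS. Per the submitters' processing notes, reads were aligned to hg38 with STAR 2.6.1d and compared with DESeq2. For the counting program, the strand setting and the annotation, nothing is stated in the sources used here. FPKM values of 58735 genes were deposited by the authors for all libraries. The authors' deposited comparison tables also hold the read count, the log2 fold change, a signal (the read count over the size factor of its library) and the p-value of genes under an unadjusted p of 0.05. Gene identifiers all matched GENCODE release 29, which gave symbols (27 had been turned into dates), coordinates and exon lengths. With those lengths, all 704820 FPKM values came out as whole reads within 1e-06 reads, and these recovered reads gave the depths. Depth ranged from 15295046 to 18182059 reads per SK-BR-3 library.

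Genes that reached 1 FPKM in 3 or more of the 6 SK-BR-3 libraries were tested with limma 3.58.1 in R 4.3.3 on log2(FPKM + 1), with all 12 libraries, 1 DATS effect per line, the replicate number as a block within each line and a variance trend. Of the tested genes, 76 reached 1 FPKM in all DATS and no DMSO library, of which 68 were called, and 83 the reverse, of which 69 were called. The block was part of the definition of the comparison. As a check, same-numbered libraries deviated together, with correlations of 0.446, 0.28 and 0.292 for SK-BR-3 replicates 1, 2 and 3, and 0.24, 0.192 and 0.349 for MCF-10A. In a blocked fit, leaving out 1 library also takes its partner out of the contrast. Both lines share 1 estimate of replicate variation, with 3 preparations per group, so the MCF-10A libraries also enter the p-values of SK-BR-3. Variation beyond these 2 cell lines is not covered by them. The fit was tested on simulated data with 200 of 11448 genes changed. It called 80.6% of those changed by 0.585 on the log2 scale, 100% at 1 and 2, and 0.16% of the unchanged genes. The simulation gave every gene the same fixed dispersion and replicate spread, and changed only genes above a minimum number of reads. It held no trend of GC content, length or library quality, so these rates need not hold for the real libraries. Alternatives were edgeR 4.0.16 and DESeq2 1.42.0 on the recovered reads, other pseudocounts, filters, scalings and blocks, libraries left out, and, chosen after seeing the data, removal of GC and length trends.

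Members and lists were chosen with earlier results of these data known. Named genes were drawn from the 12 largest rises and 12 largest falls among protein-coding genes whose groups did not overlap and whose higher group averaged at least 5 FPKM, the 5 largest noncoding changes, up to 4 members per list with the largest change, and a panel of 16 genes given whatever their result. Some genes that this rule allows are not named, among them several whose calls were lost when a replicate was left out, a choice made after their values were seen, and a few results are not reported here. Of 103 named genes, 21 share at least 10% of their exon bases with another gene, and without a known strand setting those reads cannot be told apart. Figures were drawn with matplotlib 3.10.9.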

Additional observations from a re-analysis of the deposited data

Results flagged for a closer look

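Of the 103 named genes, 57 had a difference between SK-BR-3 and MCF-10A called by the interaction contrast of the limma fit at an adjusted p under 0.05. The contrast was called for 11.1% of all tested genes. Of the 57 genes, 33 had a higher and 24 a lower response in SK-BR-3. Values in parentheses are the difference of the log2 fold changes, SK-BR-3 minus MCF-10A. The differences were above 0 for genes of mitosis CDC20 (1.79), CDKN3 (1.54), KIF20A (1.42), PLK1 (1.33), AURKA (1.25), CENPE (1.19) and KIF18A (1.18). They were above 0 for NRF2 targets and other thiol or transport genes GPX2 (1.55), FTH1 (0.83), TXNRD1 (0.79), SLC3A2 (0.77), MGST1 (0.63), NFE2L2 (0.48) and MT1G (1.34). Chaperones and genes of protein handling also had differences above 0, in HSPB8 (1.28), HSPB1 (1.12), ERO1A (0.91), CRYAB (0.89), PSMC6 (0.46), PSMD14 (0.39) and GPNMB (0.54). So did genes of keratins, adhesion and signalling, in KRT16 (2.18), CCL22 (2.17), KRT17 (1.35), CD44 (1.05), ANXA1 (1.02), CDH5 (1.00), CDKN2B (0.65) and NEDD9 (0.49). The others above 0 were EEF1A2 (1.39), PSG4 (1.09), KPNA7 (1.02) and UBE2T (0.45). Below 0, with a lower response in SK-BR-3, were the luminal and HER2 genes ERBB2 (-0.39), PGAP3 (-0.48), XBP1 (-0.81), SPDEF (-1.19) and MUC1 (-1.54). The tubulins and a D cyclin were below 0 as well, with TUBB4B (-0.51), TUBA1B (-0.52), TUBB (-1.12) and CCND3 (-0.66). So were genes of sulfur and redox metabolism, namely SUOX (-0.72), CTH (-0.73), SELENBP1 (-1.52) and FDXR (-0.61). The remaining differences below 0 were STAC2 (-1.05), SNHG19 (-1.06), RAB26 (-1.06), TRIM3 (-1.07), SERHL2 (-1.11), H19 (-1.11), ID2 (-1.17), RHPN1 (-1.30), LRRC26 (-1.32), TGFB3 (-1.51) and CRACR2B (-1.85). Of the 57 genes, 13 were under 1 FPKM in every MCF-10A library, namely CCL22, CDH5, CDKN2B, GPNMB, MT1G, NEDD9, CRACR2B, H19, LRRC26, SERHL2, SPDEF, STAC2 and TGFB3. They passed the filter on level through SK-BR-3 alone, so their differences restate the change in SK-BR-3 and do not show a differing response. Over all tested genes, 161 of the 1276 called differences were of this kind. EEF1A2 (0.370 to 1.20 FPKM), GPX2 (0.808 to 2.04 FPKM) and CTH (0.835 to 1.81 FPKM) stood near 1 FPKM in MCF-10A. So did RAB26 (0.706 to 2.71 FPKM), KPNA7 (0.329 to 2.67 FPKM) and PSG4 (0.758 to 3.44 FPKM). The scale understates a change at such levels, so the size of these differences is uncertain. None of the G2/M, kinesin, replication, heat shock or sulfide members was under 1 FPKM in every MCF-10A library. Most named genes were chosen for their change in SK-BR-3, so the share of 57 among 103 is set by that choice and is not compared with the share of all genes.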

How the results depend on the processing

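Of the 96 called genes among the 103 named, 64 were called in every setting, and 5 named genes, none of them called, changed sign in some setting. Since genes with fragile calls were partly left unnamed, these counts do not measure stability. Without the replicate block, 2456 genes were called in place of 3693 (1508 higher), and on the SK-BR-3 libraries alone without the block 1195 (778 higher, 417 lower). On those libraries alone with the block, 2687 were called (1646 higher, 1041 lower). With a replicate pair or a single library left out, calls ranged from 1407 to 3739, with 879 to 2324 higher and 528 to 1415 lower. The lowest with the block was 1828, without SK-BR-3 replicate 3 (1157 higher, 671 lower). Without the block, 1490 were called (939 higher, 551 lower) without DMSO replicate 2, 1407 (879 and 528) without DMSO replicate 3, 1845 (1137 and 708) without DATS replicate 1, 2405 (1494 and 911) without DATS replicate 2 and 1448 (888 and 560) without DATS replicate 3. At a mean of at least 5 FPKM, which tests fewer genes, 928 were lower. The difference between the lines was called for 1276 genes with the block and 525 without it. Quantile scaling and edgeR gave 53.4% and 50.8% of calls as higher, against 61.9%, and the ribosomal protein median turned from 0.04 to -0.06 and -0.02. Of the named genes, PRDX1, DDIT4, CCND1, TUBB4B and CSF1R lost their calls without the block in the 12 libraries. In that fit 13 replication genes were lower, and 7 actin, 8 interferon, 11 proteasome, 7 ER and 6 cholesterol genes were higher. Of all called genes, 2430 were also called without the block in the 12 libraries, and 3186 with edgeR. The sign of DDIT3 turned to -0.027 with quantile scaling, -0.039 with a common median, -0.048 with edgeR, -0.017 with DESeq2, -0.033 without SK-BR-3 replicate 2 (0.035 without replicate 3), and, without the block, -0.030, -0.038 and -0.11 without DMSO replicate 1, DMSO replicate 3 and DATS replicate 2. LDHA turned to -0.056, -0.021, -0.034 and -0.00025 under the same scalings and tools, -0.0017 without replicate 2 (0.052 without replicate 3), -0.13 and -0.14 without DMSO replicate 1 and DATS replicate 2 and no block, and -0.080 with GC and length trends removed. Without the block, PRDX3 turned to 0.013, 0.0069 and 0.077 without DMSO replicate 2, DMSO replicate 3 and DATS replicate 1, and JUN to 0.0039 without DMSO replicate 2. ESAM turned to -0.044 without replicate 1 (0.15 without replicate 3). The cause of these shifts was not tested. On simulated data, with 3 libraries a group, part of the smallest changes was missed.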

Other observations

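Of 17 tested hypoxia targets 9 were higher (52.9%, against 20.0% of all genes) and 0 lower (against 12.3%) in SK-BR-3. Only 4, 5 and 2 were higher without replicates 1, 2 and 3. The median log2 change was 0.35, and 0.36 in MCF-10A. Of 26 apoptosis regulators 7 were higher (26.9%) and 0 lower, with a median of 0.11, and 3, 4 and 2 were higher without replicates 1, 2 and 3 and 1 lower without replicate 1. Of 14 genes of the Notch pathway 4 were higher (28.6%) and 2 lower (14.3%), with 5, 2 and 1 higher when replicates 1, 2 and 3 were left out, and 4 had a higher and 1 a lower response than in MCF-10A. Of 19 FOXO targets 5 were higher (26.3%) and 2 lower (10.5%), with a median of 0.00 against 0.30 in MCF-10A. Of 27 genes of AP-1 and ERK output 5 were higher (18.5%) and 4 lower (14.8%), with 2 higher without replicate 3. Of 18 genes of fatty acid synthesis 2 were higher (11.1%) and 2 lower (11.1%). Apart from the hypoxia list, the higher shares ran from 11.1% to 28.6%, not far from the 20.0% of all genes.

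The share of called genes varied between chromosomes. On chromosome 18, 30.4% of 135 tested genes were higher and 3.70% lower, and on chromosome 13, 29.9% of 187 were higher and 8.56% lower. On chromosome 16, 11.8% of 549 were higher and 18.9% lower, and on chromosome 17, which carries ERBB2, 12.5% of 734 were higher and 18.9% lower. The part of GC content and exon length in these shares was not tested.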
